A study of Mus musculus with 4 samples.

Results

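The genes described here lie on the proximal part of mouse chromosome 1 (genome build GRCm38). There, in libraries labelled neural precursor cells in both genotypes, *Zfp57*-/- transcripts carried more maternal than paternal reads while wild-type ones carried about equal shares. Cell type markers, given below, differed between the genotypes. The genes were chosen by position: all annotated genes of chromosome 1 that end below 150200000 bp and hold more than 8 fragment counts summed over the 4 libraries. This gave 945 of the 2437 annotated genes of that interval, out of 19995 genes in the genome with more than 8 counts. No gene crosses the boundary, and the 426 chromosome 1 genes with more than 8 counts that start beyond it are called distal below. Because the boundary was set where the allelic ratio changes in these same libraries, the shift of the region as a whole is given as a description and is not tested. What is tested is which genes moved less or more than the region did.

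The study asked how loss of ZFP57, a KRAB zinc finger protein that keeps the DNA methylation marks of imprinted regions, alters allelic expression when embryonic stem cells (ESCs) become neural. Both genotypes are JB1 hybrid cells from a JF1 mother and a C57BL/6 father, so that single nucleotide differences between the strains tell maternal (JF1) from paternal (C57BL/6) reads. Wild-type cells (2 libraries) and cells of the *Zfp57*-/- line, a knock-out made in the JB1 hybrid (2 libraries), were kept with the Gsk3 inhibitor CHIR99021 as ESCs, then moved to defined medium with 1 µM cyclopamine, a Hedgehog pathway inhibitor, from day 2 to day 10, and harvested at day 12. All *Zfp57*-/- libraries stem from 1 mutant line, so that a property of that line and an effect of the genotype cannot be told apart.

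In a diploid hybrid cell most genes are transcribed from both parental copies at similar rates, and the allelic ratio, maternal reads over the sum of maternal and paternal reads, lies near the middle. Imprinted genes are the exception, because a germline methylation mark silences 1 parental copy. Cultured pluripotent and neural cells are also known to gain or lose whole chromosomes or chromosome arms, and a gene present in an extra copy from 1 parent is then read more often from that parent's allele. DNA copy number was not measured here. For reference, 2 maternal copies against 1 paternal copy would give a ratio of 0.667, and 3 copies in place of 2 would give a log2 change in level of 0.58 if every copy were transcribed alike.

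The libraries held 7663520 to 10337082 bulk fragment counts and 2837013 to 3826604 allelic counts. Markers of pluripotent cells (*Pou5f1*, *Nanog*, *Zfp42*, *Esrrb*, *Tdgf1*) summed to 2.60 and 6.87 counts per 1000000 (CPM) in wild-type cells and to 917 and 829 in *Zfp57*-/- cells, where 5 of 5 were higher. Neural precursor markers summed to 1026 and 1395 CPM in wild-type and to 408 and 425 in *Zfp57*-/- cells, where 5 of 8 were lower while *Emx2*, a dorsal forebrain marker, held at most 24 counts in any library of either genotype. Endoderm markers lay between 206 and 579 CPM with 0 of 4 called (edgeR; 0 of 4 also at an unadjusted p under 0.05 and with DESeq2), and endothelial markers between 62.3 and 77.8 CPM with 1 of 3 higher and 1 lower. The part of these cell type differences in the levels of single genes given below was not tested, and fewer cells of a type and less RNA per cell cannot be told apart in bulk RNA. Counts of *Zfp57* itself were 392 and 249 in the wild-type libraries, against 158 and 144 in the mutant ones, whose allelic reads of the gene (82 and 76) were all paternal.

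The *Zdbf2* and *Nrp2* promoters are shown first, since these genes are among those that exceeded the regional allelic shift, as described below, and their windows hold the hexamer recognised by ZFP57, which most such genes' windows do not. *Zdbf2* encodes a DBF-type zinc finger protein and is known as a paternally expressed imprinted gene, and *Nrp2* encodes neuropilin-2, a receptor for semaphorins in axon guidance. Each window runs from 250 bases before to 50 bases after a RefSeq transcript start (assembly GRCm38.p6, plus strand). Capitals mark TGCCGC, the core of the ZFP57 recognition sequence, or GCGGCA, the same hexamer on the other strand.
*Zdbf2* upstream start, chr1:63200108-63200407: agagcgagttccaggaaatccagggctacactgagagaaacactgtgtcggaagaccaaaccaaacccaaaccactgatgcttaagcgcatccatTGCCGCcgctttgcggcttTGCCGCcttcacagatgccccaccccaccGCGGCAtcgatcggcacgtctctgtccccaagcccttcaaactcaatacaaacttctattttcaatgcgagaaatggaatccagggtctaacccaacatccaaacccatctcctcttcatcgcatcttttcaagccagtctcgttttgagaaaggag
*Zdbf2* downstream start, chr1:63273019-63273318: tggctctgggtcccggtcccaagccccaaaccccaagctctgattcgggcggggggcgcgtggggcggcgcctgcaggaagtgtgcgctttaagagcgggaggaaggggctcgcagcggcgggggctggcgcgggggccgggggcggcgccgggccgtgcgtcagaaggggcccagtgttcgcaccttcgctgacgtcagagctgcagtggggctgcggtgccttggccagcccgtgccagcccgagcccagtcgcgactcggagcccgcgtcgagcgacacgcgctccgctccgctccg
*Nrp2* start, chr1:62703067-62703366: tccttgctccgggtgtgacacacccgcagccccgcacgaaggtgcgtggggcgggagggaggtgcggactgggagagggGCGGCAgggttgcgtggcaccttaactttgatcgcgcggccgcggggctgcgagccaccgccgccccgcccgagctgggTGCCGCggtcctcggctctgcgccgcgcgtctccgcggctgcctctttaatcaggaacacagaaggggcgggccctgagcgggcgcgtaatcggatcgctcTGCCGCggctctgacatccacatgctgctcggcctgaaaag
The upstream *Zdbf2* window and the *Nrp2* window each held the hexamer 3 times, and the downstream *Zdbf2* window held none. Over all 32851 windows of the same length, 11.6% held it at least once on either strand and 0.234% held it 3 or more times. Of the 945 members, 518 had 653 windows, of which 16.7% held it, beside 17.1% of 334 windows of distal genes. Of the members that exceeded the regional allelic shift, 5 of 18 windows held it, and of those that fell short, 3 of 25. These windows covered 16 of the 20 genes that exceeded the shift and 22 of the 29 that fell short. No window was matched for *Wdfy1*, the firmest of those that exceeded it, or for *Clasp1*. The windows of *Hs6st1*, *Srgap2*, *Itm2c* and *Rpl37a*, which exceeded the shift, held 0 copies, while *Pgap1* and 1 of the *Dst* windows, of genes that fell short, held 2. The windows were searched after the expression values were seen, and a match describes letters only.

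Over the 435 members whose allelic reads numbered 10 or more in each library, the median allelic ratio was 0.491 and 0.498 in the wild-type libraries and 0.654 and 0.656 in the *Zfp57*-/- libraries. Replicates differed by an SD of 0.00533 (n = 2, wild-type) and 0.00151 (n = 2, *Zfp57*-/-). Over 181 distal genes the same medians were 0.481, 0.487, 0.485 and 0.485. Both *Zfp57*-/- libraries lay above both wild-type libraries in 353 members, that is in 81.2%, where the share was 19.5% over all 10091 genes read as deeply and 22.7% over distal genes. The opposite order was seen in 11 members (2.53%), against 29.3% over all such genes. Over the 186 members with at least 1000 allelic reads the medians were similar, 0.495 (wild-type) and 0.657 (*Zfp57*-/-).

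**Figure D1:**
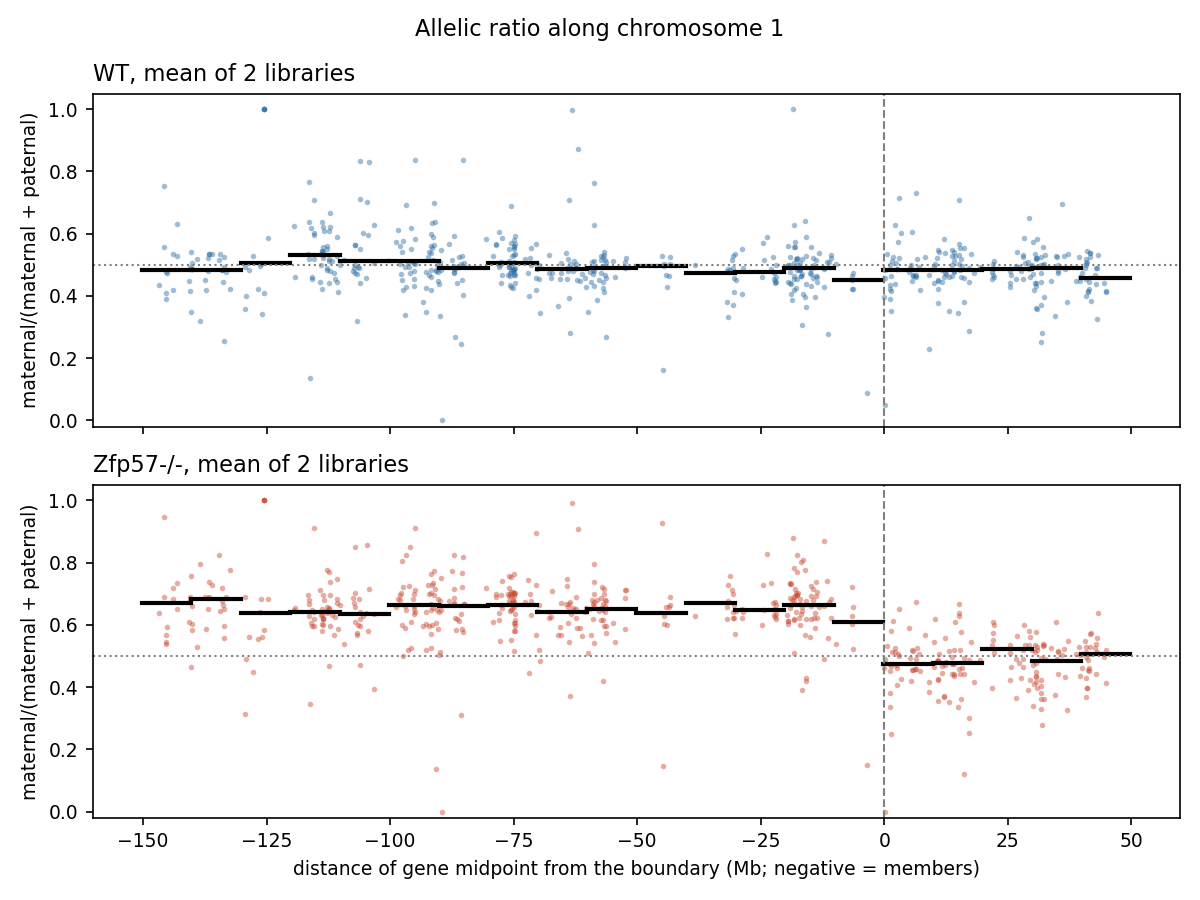
Allelic ratio of each gene (y axis, mean of 2 libraries) against the distance of its midpoint from the boundary in Mb (x axis), for wild-type cells (top) and *Zfp57*-/- cells (bottom), with black bars for the medians of 10 Mb bins. In *Zfp57*-/- cells the bars left of the boundary stand near 0.65 and those right of it near 0.5, while in wild-type cells they stand near 0.5 throughout.

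The shift was seen in the median of each 10 Mb bin up to 150 Mb. Beyond *Uchl5*, which ends at 143807466 bp, single members did not resolve it. *Gm15583* and *Ptgs2*, the members read 10 or more times per library there, overlapped between genotypes. In bins of 10 Mb the median ratio of *Zfp57*-/- libraries ran from 0.63 to 0.684 up to 140 Mb and was 0.58 and 0.635 over the 7 members of the last bin, then 0.475 and 0.474 over the 40 genes from 150 to 160 Mb. Wild-type bins ran from 0.43 to 0.546. The highest wild-type bin medians, 0.517 and 0.546, belonged to the 45 members from 30 to 40 Mb.

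Few genes are expressed at the boundary itself, and the nearest ones read 10 or more times per library are given first. *Uchl5*, a deubiquitinase of the proteasome at 143777272 to 143807466 bp, had ratios of 0.413 and 0.536 in wild-type cells against 0.68 and 0.635 in *Zfp57*-/- cells, so that the groups did not overlap. The innermost member, *Ptgs2*, the cyclooxygenase that starts prostaglandin synthesis at 150100031 bp, had 0.462 and 0.333 in wild-type cells against 0.455 and 0.47 in *Zfp57*-/- cells on 34 and 110 reads. Of the other 2 so read, *Gm15583* and *Gm29170*, both overlapped between genotypes. Less deeply read members lie there too. *Rgs2*, a regulator of G protein signalling at 143999338 to 144004161 bp, had ratios of 0.489 and 0.465 in wild-type cells (90 reads) against 0 and 0.273 in *Zfp57*-/- cells (16 reads), and it fell short of the regional shift (edgeR adjusted p = 0.0446). *Pla2g4a*, cytosolic phospholipase A2, had 0.556 and 0.333 on 15 reads against 0.486 and 0.438 on 53 reads, which overlapped. Outside, *Odr4* had 0.49 and 0.424 in wild-type cells against 0.462 and 0.489 in *Zfp57*-/- cells, and *Tpr*, a nuclear pore protein, 0.483, 0.48, 0.515 and 0.468. The pseudogene *Rbm3-ps* was read almost only from the paternal copy in both genotypes, and *Hmcn1*, a matrix protein, had 0.514, 0.556, 0.516 and 0.55.

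The interval also held a larger share of the counts. Leaving out 5 nuclear copies of mitochondrial genes, treated below, members held 3.98% and 3.71% of the bulk counts of wild-type libraries and 5.43% and 5.29% of those of *Zfp57*-/- libraries, both of which were higher. Distal genes held 2.05% to 2.21% in all 4 libraries. The median bulk log2 fold change of members, *Zfp57*-/- over wild-type, was 0.36 (quartiles -0.58 and 0.99), against -0.24 for distal genes and -0.02 for the other autosomes. Among the 601 protein-coding members the median was 0.57 (quartiles -0.08 and 1.12), and among the 336 of these with a mean of at least 20 CPM it was 0.58 (quartiles 0.15 and 0.96). The same strata gave -0.07 and 0.02 for distal genes and 0.04 and 0.07 for the other autosomes. In the test across all genes, 230 members were higher and 111 lower at an adjusted p below 0.05, where 13% of all genes tested were higher and 14.6% lower. These counts move with single libraries: 169 and 185 members were called without *Zfp57*-/- replicate 1 or 2, and 473 and 509 without wild-type replicate 1 or 2, in place of 341.

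The parental copies changed unequally. Over the 481 members with enough allelic reads to be fitted, the median log2 change of maternal reads was 0.75 (quartiles 0 and 1.30) and that of paternal reads -0.11 (quartiles -0.85 and 0.36). Reads were asked of the wild-type libraries only, and 47 of these members lacked 10 reads in a *Zfp57*-/- library. Genes with reads only in *Zfp57*-/- cells, such as *Prdm14*, were left out. This fit of each copy had no library term, so it treated both alleles of a library as independent. It called 226 members higher and 39 lower from the maternal copy, where 11% and 18.3% of all genes tested were. From the paternal copy it called 64 members higher and 98 lower, where 16.7% and 15.9% of all genes were (32.6% in either direction). Distal genes had medians of -0.15 and -0.20. The allelic shift, the log2 change of the maternal to paternal ratio, had a median of 0.96 over members (quartiles 0.59 and 1.24) and was above 0 in 435 of 481. It was called higher in 257 and lower in 3 members, where 4.18% and 10.3% of all genes tested were.

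**Figure D2:**
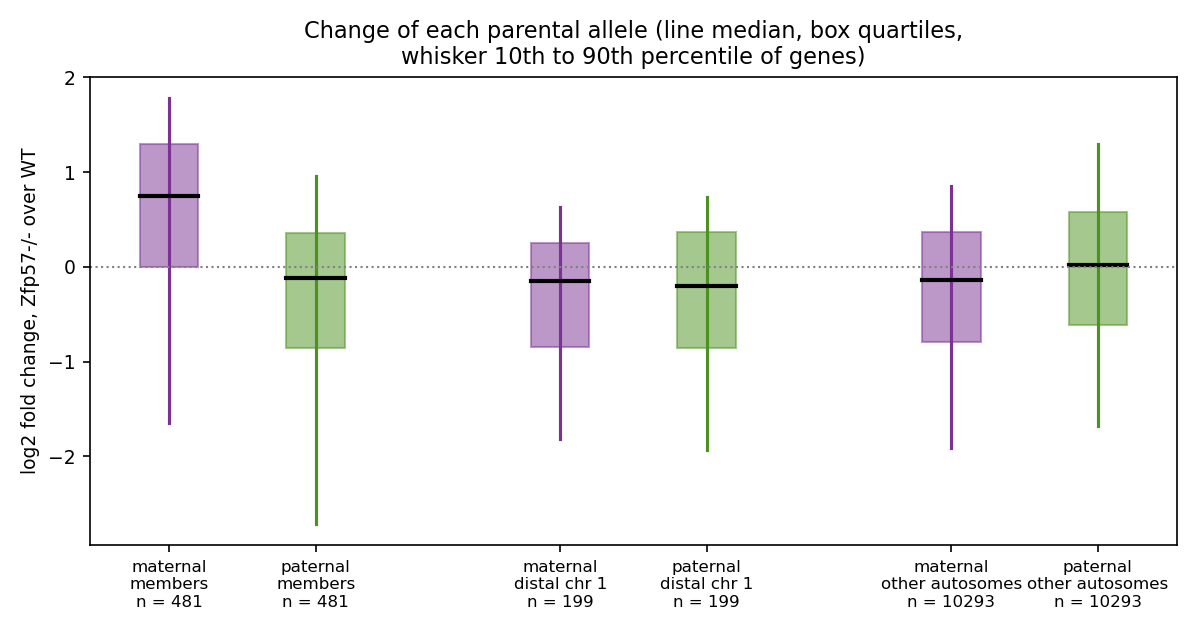
Log2 fold change of maternal (purple) and paternal (green) reads, *Zfp57*-/- over wild-type, for 481 members, 199 distal genes and 10293 genes of the other autosomes, with lines for medians, boxes for quartiles and whiskers from the 10th to the 90th percentile of genes. The maternal median of members stands at 0.75 and the paternal one at -0.11, while the other 4 medians lie between -0.20 and 0.02.

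The median allelic shift was 0.99 over members called higher in bulk, 0.81 over those called lower and 0.96 over the rest, and these medians were not tested against each other. Members called higher in bulk had a median ratio of 0.658 in *Zfp57*-/- cells (171 genes), those called lower 0.648 (39 genes) and the rest 0.652 (225 genes), from wild-type medians of 0.49 to 0.494. The lowered genes *Kif21b* and *Pax3* are described below.

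The genes with the firmest departure upward from the regional allelic shift were *Wdfy1* and *Zdbf2*. The edgeR quasi-likelihood test took the regional median as the null for members and no shift as the null for other genes. Over all genes tested it called 1.95% higher and 10.3% lower at an adjusted p below 0.05. In all, 20 of the 481 members exceeded the regional median and 29 fell short of it. DESeq2 on the same reads called 2 and 10, and without wild-type replicate 1 or 2 edgeR called 32 and 31 in all.

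*Wdfy1*, a FYVE-domain protein of endosomes at 79702262 to 79776143 bp, had ratios of 0.461 and 0.379 in wild-type cells against 0.902 and 0.889 in *Zfp57*-/- cells on 660 and 690 reads. Maternal reads rose by 1.14 and paternal reads fell by 2.45 on the log2 scale, while its bulk level was 66.7 and 69.4 CPM in wild-type cells against 78.0 and 75.3 in *Zfp57*-/- cells. Its allelic shift exceeded the regional median by 2.63 (SE 0.23, edgeR adjusted p = 5.88e-17).

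*Zdbf2*, whose promoters are printed above, was read mostly from the paternal copy in wild-type cells, at ratios of 0.27 and 0.266, and mostly from the maternal copy in *Zfp57*-/- cells, at 0.639 and 0.605. Its departure was 1.20 (SE 0.15, edgeR adjusted p = 4.68e-11). The mean ratio of *Zdbf2* in *Zfp57*-/- cells, 0.622, lay between the members' quartiles of 0.607 and 0.696. Its departure thus reflects a low wild-type ratio, not a *Zfp57*-/- ratio above that of other members. Maternal reads rose by 1.68, the paternal change of -0.49 did not pass (edgeR adjusted p = 0.074), and its level went from 248 and 198 CPM to 366 and 340 CPM (log2 0.66, SE 0.20, edgeR adjusted p = 0.0321). This level lay 0.30 above the regional median, within error (SE 0.20, edgeR adjusted p = 0.287). Of the other genes of its domain, *Adam23*, a neuronal surface metalloprotease-like protein, had ratios of 0.482 and 0.494 in wild-type cells against 0.595 and 0.57 in *Zfp57*-/- cells, and *Gpr1*, a chemerin receptor gene, held at most 8 counts in any library.

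*Nrp2* had ratios of 0.503 and 0.528 in wild-type cells against 0.805 and 0.74 in *Zfp57*-/- cells, 0.71 above the regional shift (SE 0.14, edgeR adjusted p = 6.43e-05). Its level, 181 and 121 CPM in wild-type cells against 135 and 133 in *Zfp57*-/- cells, overlapped between genotypes. Its paternal reads fell by 1.35 on the log2 scale, and the maternal change of 0.34 did not pass (edgeR adjusted p = 0.352). *Clasp1*, which stabilises microtubule ends, had ratios of 0.484 and 0.487 against 0.744 and 0.711 at levels of 303 to 328 CPM in all libraries. *Hs6st1*, a heparan sulfate 6-O-sulfotransferase, *Srgap2*, a regulator of neuronal migration and spine maturation, and *Itm2c*, a membrane protein of the BRI family, reached 0.705 to 0.753 from 0.414 to 0.495. *Rpl37a*, a ribosomal protein gene with processed copies elsewhere, departed by 0.37 (SE 0.08, edgeR adjusted p = 0.000575). *Rpl37a* held more allelic reads than bulk counts, for a reason that was not tested, so this value is uncertain. Of these 8 genes, *Wdfy1* and *Zdbf2* also passed with DESeq2 on the same reads, and the other 6 had DESeq2 adjusted p from 0.0621 to 0.135.

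**Figure D3:**
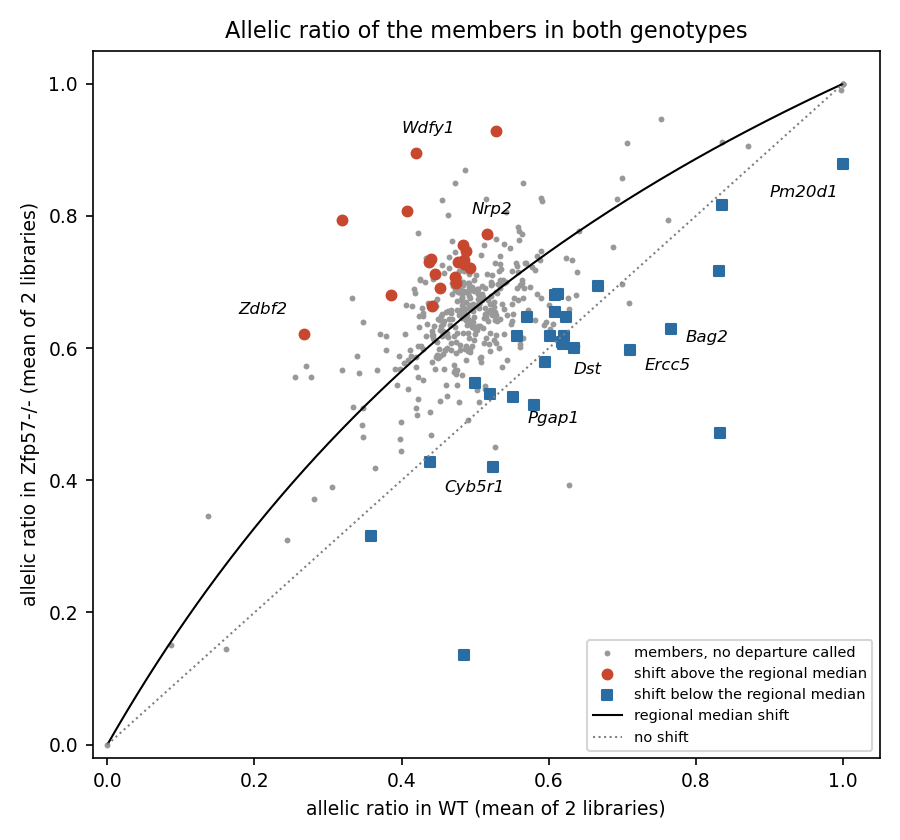
Allelic ratio in *Zfp57*-/- cells (y axis) against wild-type cells (x axis), both as means of 2 libraries, for the 435 members read 10 or more times per library. The solid curve is the ratio that the regional median shift of 0.96 gives, red points exceed it and blue squares fall short of it. *Wdfy1* and *Zdbf2* lie above the curve, and *Dst*, *Ercc5*, *Bag2* and *Cyb5r1* lie on or below the dotted line of no shift.

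Many genes that escaped the shift were already read more from the maternal copy in wild-type cells. Of the 29 members that fell short, 21 were called maternal and 1 paternal in wild-type cells, against 47 and 46 of all 481 members, where 14.3% and 9.26% of all genes tested were called. Their ratio had medians of 0.608 (wild-type) and 0.606 (*Zfp57*-/-), with median log2 changes of 0.75 for maternal and 0.94 for paternal reads. Since a gene with a high wild-type ratio is more likely to be picked as falling short, these medians are a description. Of the 20 that exceeded the shift, 7 were called paternal and 0 maternal in wild-type cells. A low wild-type ratio likewise makes a gene more likely to be picked there. By position, 18 of the 29 (62.1%) lay between 30 and 60 Mb, which held 127 of the 481 members (26.4%), whereas 1 of the 20 that exceeded the shift lay there. This window was not set before the calls were seen, so these shares are a description. It also holds the bin with the highest wild-type medians, so the picking by wild-type ratio applies to position too.

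*Dst*, the cytoskeletal linker dystonin, with 7247 and 15165 allelic reads in the 2 genotypes, had ratios of 0.61 and 0.628 in wild-type cells against 0.593 and 0.62 in *Zfp57*-/- cells, so that the groups overlapped. Its departure was -1.04 (SE 0.07, edgeR adjusted p = 7.14e-22), yet its level rose from 709 and 547 CPM to 1173 and 1114 CPM (log2 0.86, SE 0.20, edgeR adjusted p = 0.0119), by 0.97 from the maternal and 1.04 from the paternal copy. *Phf3*, a regulator of RNA polymerase II elongation, *Actr1b*, a dynactin subunit, and *Wdr75*, a ribosome biogenesis factor, likewise rose by 1.24, 0.84 and 1.46 on the log2 scale with ratios that stayed between 0.576 and 0.653 in all libraries. *Pgap1*, an enzyme of GPI anchor remodelling, had 135.7 and 134.1 CPM in wild-type and 135.5 and 140.4 CPM in *Zfp57*-/- cells, with maternal and paternal changes of -0.01 and 0.13. *Fam168b* had 224 and 327 CPM against 272 and 283 CPM, so that its wild-type libraries enclosed the others, and ratios of 0.605 and 0.597 against 0.633 and 0.605.

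The allelic shift was called lower in 3 members, among the 29 that fell short of the regional median and beside the 11 whose groups lay in that order. *Ercc5*, the nuclease of nucleotide excision repair also called XPG, fell from 0.703 and 0.719 in wild-type to 0.604 and 0.59 in *Zfp57*-/- cells (log2 shift -0.73, edgeR adjusted p = 0.00259). *Bag2*, an Hsp70 co-chaperone, fell from 0.718 and 0.814 to 0.635 and 0.624 (-0.99, edgeR adjusted p = 0.0107). The paternal change exceeded the maternal one in both, at 1.52 against 0.80 in *Ercc5* and 1.68 against 0.71 in *Bag2*, where the maternal change did not pass (edgeR adjusted p = 0.0716). *Pm20d1*, a secreted peptidase that makes N-acyl amino acids, was read only from the maternal copy in wild-type cells (45 reads, 0 paternal) and at 0.894 and 0.863 in *Zfp57*-/- cells (174 reads). With 0 paternal reads in wild-type, its fitted shift is not a measure of size.

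Among genes not called biased in wild-type cells, an example of escape was *Cyb5r1*, a cytochrome b5 reductase at 134405559 to 134411740 bp, chosen for description after its values were seen. Its ratios were 0.423 and 0.455 in wild-type cells against 0.435 and 0.42 in *Zfp57*-/- cells, while its level rose from 20.9 and 19.7 CPM to 72.5 and 64.0 CPM. Maternal and paternal reads rose by 1.69 and 1.75 on the log2 scale, and its departure was -1.03 (SE 0.23, edgeR adjusted p = 0.000266). *Xrcc5*, the Ku80 subunit of double-strand break repair, had ratios of 0.471 and 0.529 in wild-type cells against 0.557 and 0.536 in *Zfp57*-/- cells, and its departure of -0.72 (SE 0.16, edgeR adjusted p = 0.000218) was lost with DESeq2 (adjusted p = 0.109) and without the second wild-type library (edgeR adjusted p = 0.152).

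Some members cannot be read for either allele. Pseudogenes at 24612775 to 24616197 bp that copy mitochondrial genes, *Gm28438*, *Gm28437*, *Gm10925*, *Gm28661* and *Gm29216*, had 0 paternal reads among 23366 to 32083 in each library, in both genotypes, and their bulk counts may hold mitochondrial reads. *Gm29216* and *Gm28438* held more allelic reads than bulk counts, as did 6 other members. *Eif4a-ps4*, a processed pseudogene, was read only from the paternal copy in all libraries. No allelic read was listed for 69 members, among them *Map2* and *Kdm5b*.

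Most listed genes for basic cell functions were higher. Of 28 listed genes of translation, the proteasome, mitochondria and RNA processing, 24 were called higher and 0 lower (median log2 fold change 0.95, beside 0.36 over all members), where 230 of all 945 members and 13% of all genes tested were higher. Of the 28, 12 exceeded the regional median, as did 128 of all members. In that test 12.5% of all genes were higher, those outside the region relative to no change. The same shares stand behind the counts of the other lists, with 111 of 945 members and 14.6% of all genes tested lower. DESeq2 called 25 higher and 0 lower, at an unadjusted p under 0.05 edgeR had 27 higher and 0 lower, and all 28 fold changes lay above 0.

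*Rpl7*, a ribosomal protein of the large subunit, went from 887 and 975 CPM in wild-type to 2115 and 1839 in *Zfp57*-/- cells. Its log2 fold change was 1.09 (SE 0.20, edgeR adjusted p = 0.00303), with ratios of 0.484 and 0.481 against 0.664 and 0.691. *Eef1b2*, which recharges the elongation factor eEF1A, went from 312 and 353 CPM to 921 and 824 CPM (1.39, SE 0.19, edgeR adjusted p = 0.000651). The mitochondrial chaperonin genes *Hspd1* and *Hspe1*, which share a bidirectional promoter, rose by 1.45 and 1.72, *Nop58*, a box C/D snoRNP protein, by 1.44, and nucleolin (*Ncl*) by 1.33. *Sf3b1*, a splicing factor, had 751 and 677 CPM in wild-type cells against 883 and 839 in *Zfp57*-/- cells and was not called (edgeR adjusted p = 0.32), although its ratio went from 0.5 and 0.512 to 0.656 and 0.665. For *Sf3b1* the maternal change was 0.71 and the paternal change -0.21.

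Relatives of these genes on other autosomes, compared after the values were seen, had smaller median changes. The 3 members among cytosolic ribosomal protein genes (*Rpl7*, *Rpl31*, *Rpl37a*) had a median log2 fold change of 1.03, and 71 genes of the family on other autosomes 0.60. For complex I subunits the medians were 0.87 over *Ndufa10*, *Ndufb3* and *Ndufs1* and 0.28 over 27 relatives. For mitochondrial ribosomal proteins they were 0.91 over 4 members and 0.42 over 55 relatives, and for subunits of the COP9 signalosome 0.92 over *Cops5*, *Cops7b*, *Cops8* and *Cops9* and 0.07 over 5 relatives. The median allelic ratios in *Zfp57*-/- cells, which the choice of the region fixes in direction, were 0.612 to 0.678 for these members and 0.502 to 0.512 for the relatives. No test of these differences was made.

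Of 15 listed genes of replication, repair and mitosis, 11 were called higher and 0 lower, with a median log2 fold change of 0.87. DESeq2 called 10 higher and 0 lower, at an unadjusted p under 0.05 edgeR had 12 and 0, and all 15 values lay above 0. *Mcm3* and *Mcm6*, subunits of the replicative helicase, went from 117 and 163 CPM to 383 and 367 CPM and from 168 and 244 CPM to 466 and 463 CPM, with log2 fold changes of 1.42 (SE 0.21, edgeR adjusted p = 0.00106) and 1.17 (SE 0.22, edgeR adjusted p = 0.00362). The other 4 MCM2 to MCM7 genes, on other autosomes, had a median of 0.71. *Dtymk*, thymidylate kinase, rose by 1.51. *Hjurp*, the chaperone that loads centromeric histone CENP-A, was read mostly from the maternal copy in both genotypes (0.868 and 0.873 in wild-type, 0.898 and 0.914 in *Zfp57*-/- cells), with levels of 454 and 343 CPM against 526 and 509 CPM.

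**Figure D4:**
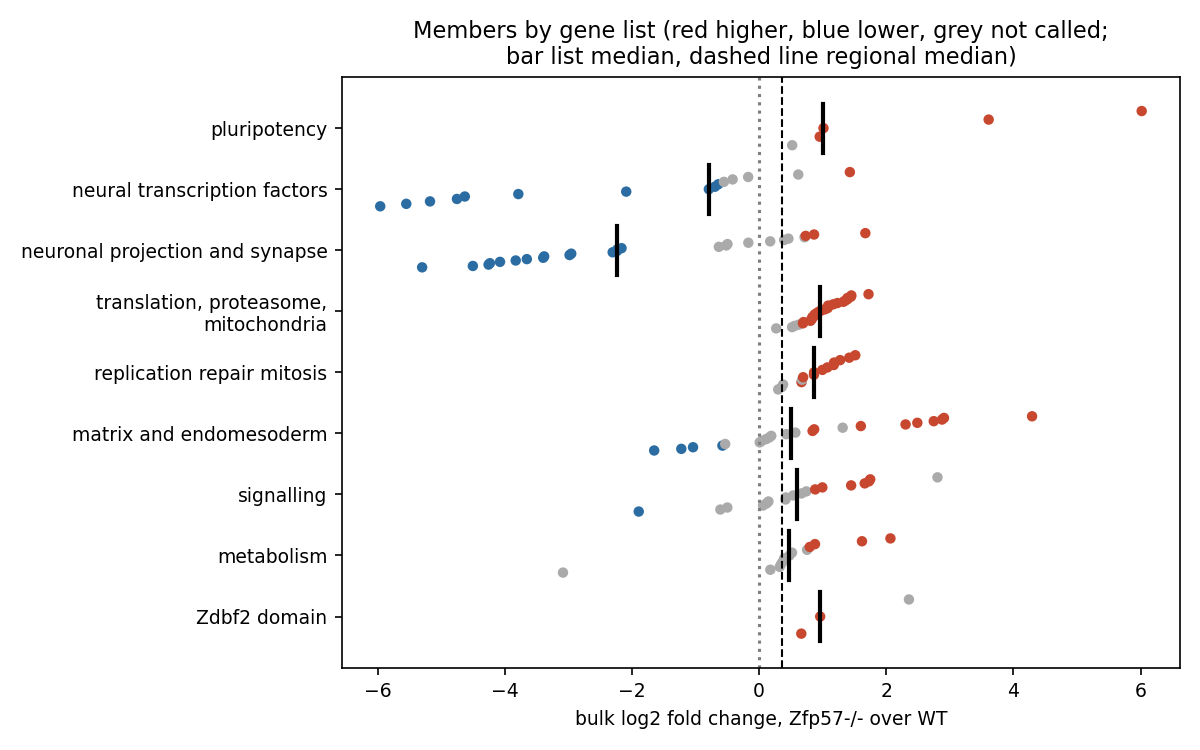
Bulk log2 fold change, *Zfp57*-/- over wild-type (x axis), of the members in 9 gene lists (rows), red for genes called higher, blue for lower and grey for not called, with a black bar at each list's median and a dashed line at the regional median of 0.36. The lists of translation and of replication lie right of 0, while the neuronal lists reach down to -5.96.

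Many listed neural genes were lower. Of 15 listed neural transcription factors that are members, 10 were called lower and 1, the midbrain-hindbrain factor *Gbx2*, higher, with a median log2 fold change of -0.79. *Pou3f3*, a POU factor of cortical progenitors, went from 144 and 113 CPM in wild-type to 5.47 and 4.91 in *Zfp57*-/- cells (log2 -4.63, SE 0.24, edgeR adjusted p = 3.44e-06). *Lhx9*, a LIM homeodomain factor, went from 89.2 and 62.5 CPM to 1.40 and 1.02 CPM, and *Pax3*, a factor of the dorsal neural tube, from 73.4 and 84.4 CPM to 5.90 and 5.52 CPM. *Tfap2b*, a factor of neural crest and dorsal interneurons, and *St18*, a zinc finger factor of differentiating neurons, fell by 4.75 and 5.18. The few *Pax3* reads that remained in *Zfp57*-/- cells, 51 in all, had ratios of 0.731 and 0.76, against 0.506 and 0.438 in wild-type cells.

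Of 26 listed genes of neuronal projections and synapses, 15 were called lower and 3 higher, with a median of -2.23. *Map2*, the dendritic microtubule protein, went from 686 and 633 CPM to 40.4 and 29.7 CPM (log2 -4.23, SE 0.24, edgeR adjusted p = 4.04e-06). *Nfasc*, a cell adhesion protein of the axon initial segment, and *Erbb4*, a neuregulin receptor, fell by 3.40 and 5.30. The kinesin *Kif21b* fell from 204 and 191 CPM to 46.3 and 42.0 CPM, and its ratio rose from 0.49 and 0.498 to 0.637 and 0.637 on 1996 and 471 reads. The 3 genes that rose were *Dst* and *Srgap2*, described above, and *Adora1*, the adenosine A1 receptor (26.5 and 51.3 CPM in wild-type, 110 and 139 in *Zfp57*-/- cells). These falls stand beside the lower sums of neural markers given above.

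Of 5 listed pluripotency genes of the interval, 4 were called higher, and *Kdm5b*, a histone demethylase, had 454 and 382 CPM in wild-type cells against 601 and 599 in *Zfp57*-/- cells without passing the test (edgeR adjusted p = 0.068). *Tfcp2l1*, a factor of naive pluripotency, went from 6.56 and 4.01 CPM to 340 and 337 CPM (log2 6.02, SE 0.28, edgeR adjusted p = 1.79e-06), with ratios of 0.683 and 0.669 in *Zfp57*-/- cells. *Nr5a2*, a nuclear receptor that can activate *Pou5f1*, went from 4.46 and 8.11 CPM to 81.6 and 74.5 CPM. These rises stand beside the higher sums of pluripotent markers given above.

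Relative to the regional median, 128 members were higher and 144 lower in level. Over all genes tested 12.5% and 14.6% were, where genes outside the region were compared with no change. Without *Zfp57*-/- replicate 1 or 2 the total of 272 became 147 and 154, and without wild-type replicate 2 it became 500. The 8 firmest above it were *Tfcp2l1*, *B3gnt7*, *Tuba4a*, *Nr5a2*, *Prdm14*, *1700019D03Rik*, *Platr22* and *Lactb2*. *Prdm14*, a PR-domain factor of ESCs and germ cells, had 0 counts in both wild-type libraries and 17.4 and 12.8 CPM in *Zfp57*-/- cells, and its 240 allelic reads there had ratios of 0.978 and 0.981. *Platr22*, a noncoding RNA named for ESCs, held 0 and 1 counts in the wild-type libraries against 116 and 96 in the mutant ones, where its ratios were 0.667 and 0.592. *1700019D03Rik* had ratios of 0.469 and 0.447 in *Zfp57*-/- cells on 70 reads. *B3gnt7*, a glycosyltransferase, and *Tuba4a*, an alpha-tubulin, exceeded the regional median by 2.99 and 2.75 with ratios of 0.584 to 0.685 in *Zfp57*-/- cells. *Lactb2*, a mitochondrial endoribonuclease, exceeded it by 1.90 with ratios of 0.759 and 0.718. The 8 firmest below it were the neural genes *Pou3f3*, *Lhx9*, *Map2*, *Pax3*, *Nfasc*, *Tfap2b*, *St18* and *Erbb4*, at -3.76 to -6.32 from the median.

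**Figure D5:**
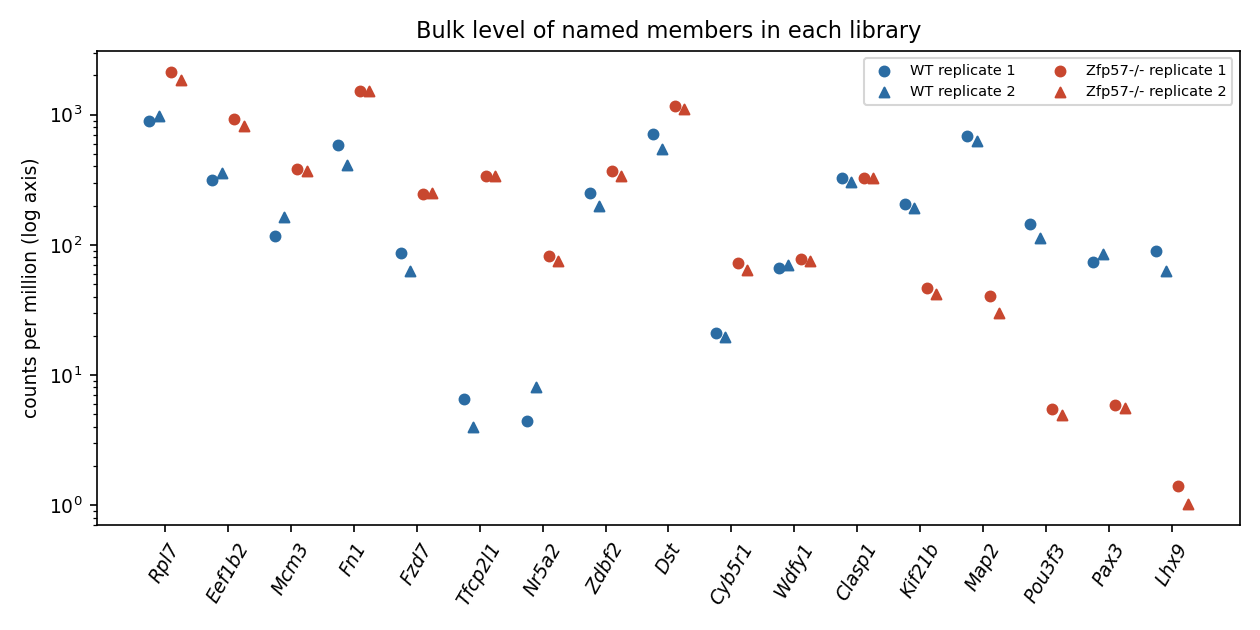
Bulk level in CPM (log axis) of 17 named members in each library, blue for wild-type and red for *Zfp57*-/- cells, circles for replicate 1 and triangles for replicate 2. *Rpl7* to *Cyb5r1* lie higher in both *Zfp57*-/- libraries, *Wdfy1* and *Clasp1* lie close together in all libraries, and *Kif21b* to *Lhx9* lie lower.

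The remaining lists were mixed. Among 22 genes of extracellular matrix and endomesoderm, 9 were called higher and 4 lower (*Sned1*, *Cxcr4*, *Ackr3* and *Gpc1*), with a median of 0.50. *Fn1*, fibronectin, went from 588 and 410 CPM to 1511 and 1518 CPM (log2 1.6, SE 0.22, edgeR adjusted p = 0.000679), with ratios of 0.557 and 0.571 against 0.697 and 0.699 on 5271 and 16753 reads. *Cxcr4*, the chemokine receptor, fell from 67.7 and 69.5 CPM to 30.3 and 28.5 CPM. *Col3a1*, a fibrillar collagen, had 612 and 279 CPM in wild-type cells against 484 and 413 in *Zfp57*-/- cells, so that the wild-type libraries lay on either side of the *Zfp57*-/- ones. *Sox17*, an endoderm factor, had 72.9 and 141 CPM against 136 and 182 CPM, which overlapped.

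Among 18 signalling genes, 6 were called higher and 1, the apoptosis inhibitor *Bcl2*, lower, beside 230 and 111 of all 945 members. The Wnt receptor genes *Fzd5* and *Fzd7* rose by 1.75 (SE 0.19, edgeR adjusted p = 0.000146) and 1.73 (SE 0.21, edgeR adjusted p = 0.00033), each to 246 CPM or more from 86.8 CPM or less. *Bcl2* fell from 49.8 and 42.2 CPM to 12.9 and 11.9 CPM, with a ratio of 0.479 and 0.446 in wild-type cells against 0.646 and 0.667 in *Zfp57*-/- cells. Of 13 metabolic genes, 4 were called higher (*Atic*, *Slc40a1*, *Pikfyve* and *Atp6v1h*) and 0 lower, beside the same 230 and 111 of 945. DESeq2 gave the same numbers, 4 and 0, and at an unadjusted p under 0.05 edgeR had 7 higher and 1 lower. *Atic*, which closes de novo purine synthesis, went from 60.3 and 91.3 CPM to 332 and 304 CPM (log2 2.07, SE 0.24, edgeR adjusted p = 0.000194). *Idh1*, isocitrate dehydrogenase, had 188 and 323 CPM against 293 and 286 CPM, so that its wild-type libraries enclosed the others.

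These tests rest on 2 libraries a genotype, and the wild-type libraries differed more from each other than the *Zfp57*-/- ones did. Without wild-type replicate 2 the median bulk log2 fold change of members was 0.20 and without wild-type replicate 1 it was 0.55, while the median allelic ratio of *Zfp57*-/- cells stayed between 0.654 and 0.656 whichever library was left out.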

How the data were processed

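Total RNA depleted of ribosomal RNA was sequenced as stranded paired-end libraries from 2 wild-type and 2 *Zfp57*-/- cultures, which the labels call biological duplicates. Reads were trimmed (Trimmomatic 0.36) and aligned to GRCm38 (STAR 2.5.4a), and the authors deposited raw fragment counts per gene from featureCounts (Subread 1.6.0). In the allelic table the authors first assigned reads to a parent at strain differences, and deposited raw counts per gene and allele. Biotypes came from a GENCODE annotation of the same build and promoter windows from RefSeq.

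Here, genes with more than 8 counts were scaled by TMM and compared with edgeR's quasi-likelihood test (edgeR 4.0.16, R 4.3.3), adjusted by Benjamini-Hochberg over all 19995 genes, at a threshold of 0.05. CPM are counts per 1000000 of the TMM-scaled library. Allelic reads of 10977 autosomal genes, each with 10 or more normalized reads in both wild-type libraries, were fitted with effects for library and, within each genotype, for allele. Departures used the same fits with the members' median (0.36 for level, 0.96 for alleles) as an offset. It was set for members only, so other genes were tested against no change. Changes of each parental copy came from a separate edgeR fit with a term per genotype and allele. That fit had no library term, so it treated both alleles of a library as independent. DESeq2 1.42.0, other scalings, filters, a replicate block and leaving out each library were alternatives. The procedures were tested on simulated data.

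Members and lists were chosen with earlier results of these data known. Named genes were up to 8 per list by total counts, the 8 with the lowest adjusted p on either side of each departure test, 4 on each side of the boundary with 10 or more allelic reads per library, and the 10 with most allelic reads; others complete a small count or were chosen after their values were seen. Replicate libraries differed by more than counting noise (chi-square per degree of freedom 46.9 for wild-type and 9.63 for *Zfp57*-/-). Items withheld from the text are not reported here.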

Additional observations from a re-analysis of the deposited data

Results flagged for a closer look

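The allelic shift of 49 members differed from the members' median shift by the edgeR quasi-likelihood test of that difference, and the 8 with the lowest adjusted p on each side are given. With DESeq2, 6 of the 8 above did not pass. Above the median stood *Wdfy1* (2.63), *Zdbf2* (1.20), *Srgap2* (0.83), *Nrp2* (0.71), *Itm2c* (0.66), *Hs6st1* (0.66), *Clasp1* (0.53) and *Rpl37a* (0.37), in log2 units of the maternal to paternal ratio. Below it stood *Bag2* (-1.95), *Ercc5* (-1.69), *Pgap1* (-1.09), *Wdr75* (-1.07), *Dst* (-1.04), *Actr1b* (-0.98), *Fam168b* (-0.86) and *Phf3* (-0.81).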

How the results depend on the processing

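Leaving out 1 library at a time leaves 1 genotype with a lone library, assumed to vary like the other. The 341 members called in bulk (230 higher, 111 lower) then ranged from 169 without *Zfp57*-/- replicate 1 to 509 without wild-type replicate 2 (higher 107 to 356, lower 62 to 201), and the 272 departing in level (128 higher, 144 lower) from 147 to 500 with the same libraries left out (higher 67 to 265, lower 80 to 235). The median bulk change ranged from 0.20 to 0.55, the 49 allelic departures from 31 to 59 (higher 14 to 25, lower 17 to 34), the wild-type ratio from 0.491 to 0.498, and the maternal change from 0.71 to 0.85. DESeq2 called 12 allelic departures (2 higher, 10 lower) in place of 49, and the cause was not tested. Centring on the other autosomes gave a *Zfp57*-/- ratio of 0.669, and asking for 20 allelic reads in every library a maternal change of 0.88. With protein-coding members only, an alternative chosen after seeing the data, the median bulk change was 0.57, and departures from that median numbered 262 (93 higher, 169 lower). With the replicate block 418 members were called (281 higher, 137 lower), 330 departed in level (154 higher, 176 lower), and the median changes were 0.38 in bulk and -0.10 for the paternal copy. The labels link the libraries of the 2 genotypes by a replicate number only. Deviations from the group means correlated at 0.157 between libraries of the same number (10149 genes). With 2 libraries a genotype this value can neither show nor exclude a pairing. No direction reversed in the alternatives run. The 2 libraries per genotype, 1 mutant line and the missing measure of DNA copy number limit all values.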
